A study of Mus musculus with 5 samples.

Results

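The list of H3K27me3 peaks from mouse epiblast stem cells was described by the size, strength and spacing of its peaks. All 11419 peaks on chromosomes 1 to 19 were taken, of 16975 in the list and 156288 in the 4 lists of the series. The cells were the line EpiSC9, grown on a feeder layer of irradiated mouse embryonic fibroblasts in serum-replacement medium that held 10 ng/ml of FGF2. Chromatin of crosslinked cells was immunoprecipitated with 1 antibody per library, against H3K4me1, H3K4me3, H3K27ac or H3K27me3, and the H3K27me3 antibody was a mouse antibody from Abcam. The labels name no treatment and no genetic change. EpiSC9 is a single line, and each mark had 1 library without a replicate, so every value describes this library and carries no test between conditions.

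Epiblast stem cells represent the primed state of pluripotency and resemble the epiblast of the embryo after implantation. H3K27me3 is placed by EZH1 or EZH2 in Polycomb repressive complex 2 and marks silenced genes, many of which encode regulators of development. In pluripotent cells it lies mainly over CpG-rich promoters, often beside H3K4me3, and spreads over whole gene clusters such as the Hox clusters. It occupies the same lysine as H3K27ac, so that a histone tail carries 1 of these marks or the other.

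Peak positions are on the mm9 build, and the score attached to each peak is the authors' and ranks peaks within the list. The number of reads behind them is unknown. Intervals given with a share are 95% Wilson intervals and cover counting over peaks only. Widths are in base pairs of the called interval, and the covered length is the sum of widths, since no peaks of the list overlapped. As a check of the label, the 4 domains of largest covered length lay, by the well-known positions of these loci, at the Hox clusters. An H3K27ac peak was touched by 137 of the 11419 peaks (1.2%, 1.02 to 1.42). No background share was computed for this overlap, so it does not check the label. Marker genes of epiblast cells and of feeder fibroblasts could not be placed on the peaks here, because no annotation of mm9 was used. The part of the feeder cells in the signal was not tested.

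Short peaks and weak peaks each made up more than 50% of the list, and a small number of long peaks held much of the covered length. The 11419 peaks covered 10.2 Mb, which was 0.412% of the autosomes up to their last peak of any list. Their median width was 477 bp (interquartile range 358 to 898), the narrowest was 176 bp and the widest 16250 bp. The mean, 891 bp, lay close to the upper quartile. Widths were crowded at the low end, where 1989 peaks (17.4%) fell between 350 and 399 bp alone.

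By width, 6005 peaks (52.6%, 51.7 to 53.5) were shorter than 500 bp and together held 21.6% of the covered length. A further 4409 peaks (38.6%) of 500 bp to 2 kb held 40%. Peaks of 2 to 5 kb numbered 811 (7.1%) and held 24%. The remaining 194 peaks (1.7%, 1.48 to 1.95) reached 5 kb or more and held 14.3%. This class, with 31-fold fewer peaks than the shortest one, covered 0.66 times as much. These shares depend on how the peaks were split when called. With peaks joined within 1 kb, those of 2 kb or more rose from 8.8% to 23.3% of the list. Their share of the covered length rose from 38.3% to 76.2%. The share under 500 bp was then 49.99%, against 52.6%.

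**Figure D1:**
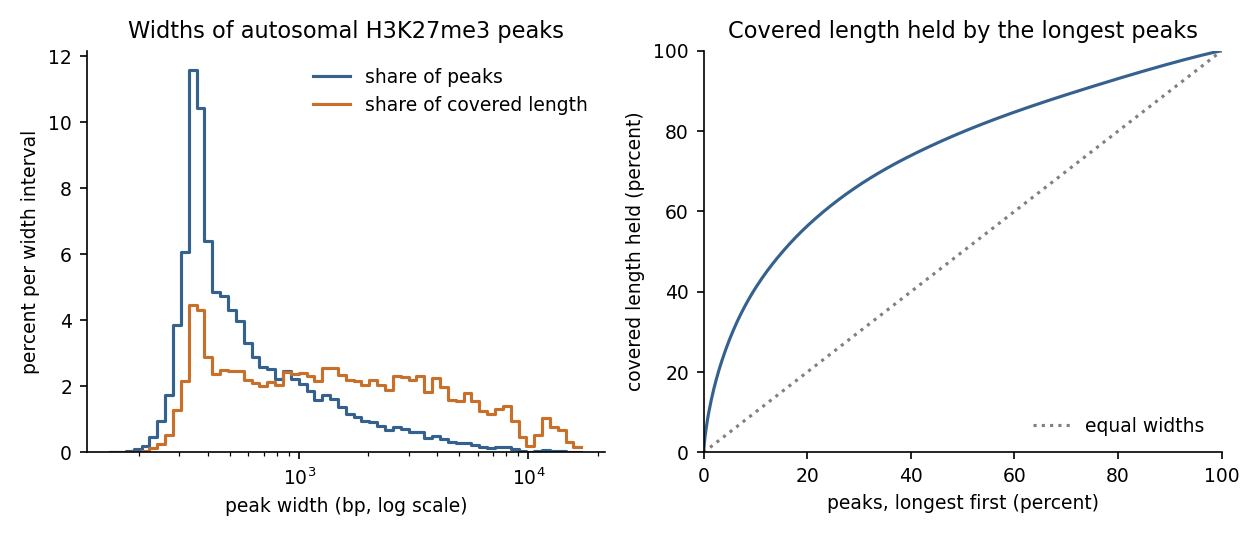
Left, share of the 11419 autosomal H3K27me3 peaks (blue) and share of the covered length (orange) by peak width on a log scale, in percent per interval of width. Right, percent of the covered length held by the longest peaks, with a dotted line for peaks of equal width. Counts gather near 350 to 399 bp, whereas covered length is spread up to the widest peak, and the longest 10% of peaks hold 40.9%.

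Ranked by width, the longest 1% of peaks (115 peaks, each of at least 6224 bp) held 9.97% of the covered length. The longest 5% held 28.1% and the longest 10% (1142 peaks, from 1818 bp) held 40.9%. From the long end, 1744 peaks (15.3%) made up 50% of the covered length, while 8259 peaks (72.3%) were needed for 90%. The value for the longest 10% lay between 40.5% and 41.2% when each chromosome was left out in turn, so no single chromosome carried it.

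Strength followed width closely. The median score was 83.6 (interquartile range 59 to 194), just above the lowest score of 50. The 3139 peaks scoring under 60 were 27.5% of the list, and the 6514 scoring under 100 were 57%. Only 660 peaks (5.78%) scored 1000 or more, yet these held 29.9% of the covered length. Across the 11419 peaks, Spearman's rho between width and score was 0.88. Both come from the same reads of 1 library and a wider enriched stretch holds more reads, so this is a description of the list.

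The interquartile ranges of the score did not overlap between the width classes. The median score was 59.7 (interquartile range 53.7 to 70.4) below 500 bp and 166 (110 to 280) from 500 bp to 2 kb. It was 1049 (755 to 1461) from 2 to 5 kb and 2707 (2274 to 3100) at 5 kb or more. The lowest score among peaks of 5 kb or more was 1245, and the highest among peaks below 500 bp was 277. Scores piled up at 3100, and 68 peaks reached this value or more, 61 of them of 5 kb or more. Differences among the strongest peaks are therefore not visible in the score.

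**Figure D2:**
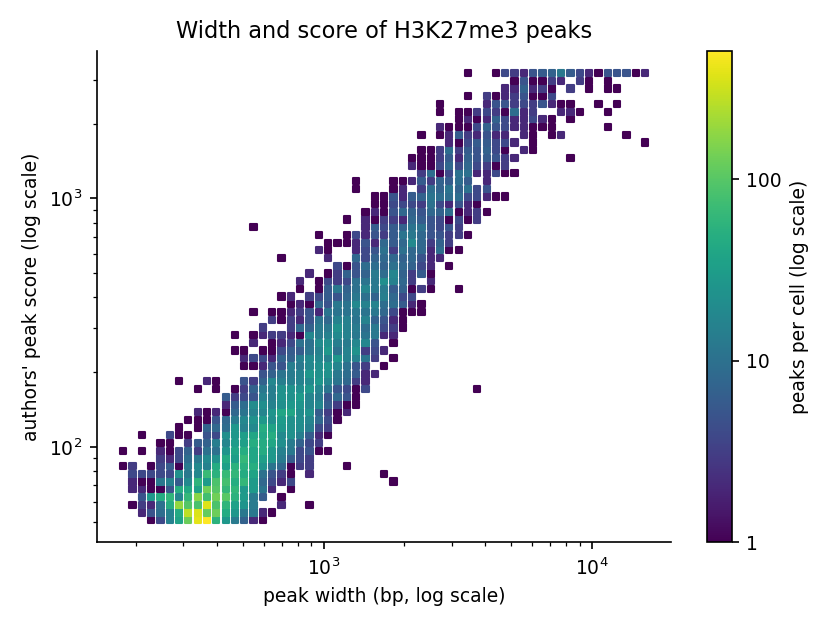
Peak width (bp, log scale) against the authors' peak score (log scale) for the 11419 autosomal H3K27me3 peaks, coloured by the number of peaks in each cell of a grid. The fullest cells of the grid lie near 350 bp and scores of 50 to 60, the corner under 500 bp and a score of 100 holds 49.8% of the peaks, and the band rises to scores that stop near 3100.

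Of the peaks under 500 bp, 94.7% scored under 100. Peaks both under 500 bp and under a score of 100 numbered 5688, which was 49.8% of the list and 20.3% of its covered length. With scores of 100 or more, 4905 peaks remained, and the share under 500 bp was 6.46% in place of 52.6%. The longest 10% of these peaks held 34.2% of their covered length.

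Neighbouring peaks were either close together or far apart. The 11400 gaps between neighbours on the same chromosome ran from 1 bp to 10.4 Mb, with a median of 1195.5 bp (95% order-statistic interval 1106 to 1281) and quartiles of 205 bp and 143 kb. Gaps of 100 bp or less numbered 1909 (16.7%), and 6764 (59.3%) were of 5 kb or less. Only 231 gaps (2.03%) were over 5 and up to 10 kb. Beyond that, 1205 (10.6%) reached up to 100 kb, 2539 (22.3%) up to 1 Mb and 661 (5.8%) more than 1 Mb. The gaps over 1 Mb made up 56.1% of the total gap length.

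On a log scale the gaps formed a pair of humps. In steps of 0.25 on the log10 scale, the fullest step of the first hump was 562 to 1000 bp with 969 gaps. In the second hump, the steps from 178 to 316 kb and from 316 to 562 kb held 675 each. The emptiest step between them was 5.62 to 10 kb, with 180 gaps. A joining distance of 5 kb, used below to form domains, thus lay next to the low point. The median gap fell on the flank of the first hump and moved with the share of short gaps, from 580.5 bp on chromosome 13 to 26482 bp on chromosome 16. The share of gaps of 5 kb or less ranged less widely, from 46.6% on chromosome 16 to 67.3% on chromosome 19, with a median of 58.9% over the 19 autosomes.

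**Figure D3:**
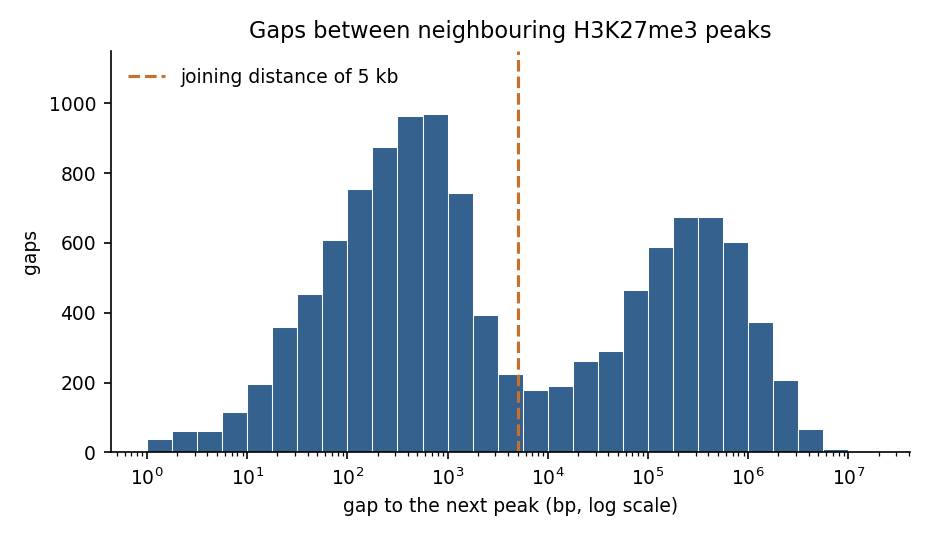
Number of gaps between neighbouring autosomal H3K27me3 peaks by gap length (bp, log scale, steps of 0.25 on the log10 scale), with the joining distance of 5 kb as a dashed line. The 11400 gaps form one hump that peaks at 562 to 1000 bp and another at 178 to 562 kb, with a low of 180 gaps from 5.62 to 10 kb.

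Long peaks had near neighbours, and solitary peaks were short. The median distance to the nearest peak was 982 bp for peaks under 500 bp, 199 bp from 500 bp to 2 kb, 66 bp from 2 to 5 kb and 62 bp at 5 kb or more. A neighbour within 5 kb was present for 3852 of the 6005 short peaks (64.1%, 62.9 to 65.4) and for 194 of the 194 longest. Conversely, 1273 short peaks (21.2%) had no other peak within 100 kb, against 8 of the 811 peaks of 2 to 5 kb (0.986%). None of the 194 longest peaks was so placed. For scale, 3 counts would be 1.55% and the upper Wilson limit is 1.94%. Both treat peaks as independent, which peaks lying close together are not. Long peaks also lay beside other long peaks: another peak of 2 kb or more lay within 5 kb of 164 of the 194 longest (84.5%, 78.8 to 88.9), and of 846 short peaks (14.1%, 13.2 to 15). Long peaks were thus mostly neighbours of other peaks across gaps shorter than 200 bp, the upper quartile of the nearest distance being 198.5 bp from 2 to 5 kb and 152 bp at 5 kb or more.

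Peaks with a neighbour within 5 kb numbered 8854 (77.5%) and held 89% of the covered length. Their median width was 557.5 bp and their median score 104. Widths of neighbours were only loosely related: Spearman's rho was 0.24 over the 6764 pairs of neighbours with a gap of 5 kb or less and 0.03 over the 4636 pairs farther apart. Pairs share peaks with the next pair, and both numbers are descriptions.

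Joined within 5 kb, the peaks formed 4655 domains, of which 2565 (55.1%, 53.7 to 56.5) were a single peak. These single peaks held 11% of the covered length and had a median width of 356 bp. Domains of 2 to 4 peaks numbered 1511 and held 30.1% of the covered length, and 435 domains of 5 to 9 peaks held 29.9%. The 144 domains of 10 or more peaks (3.09%) held 29%, with a median span of 22.1 kb, of which a median of 75.2% was covered. Among peaks scoring 100 or more there were 1998 domains.

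The 212 domains that covered 10 kb or more were 4.55% of the domains and held 20.3% of the peaks and 41.6% of the covered length. Each of the 212 held more than 1 peak, with a median of 9.5. A median of 84.2% of their span was covered (interquartile range 75.6 to 91.4). Covered length fell quickly with rank: 63 domains covered 20 kb or more and 5 covered 50 kb or more. The sixth domain covered 45.6 kb, the tenth 36.9 kb and the hundredth 16.8 kb.

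The 5 domains of largest covered length together held 180 peaks (1.58%) and 544.7 kb, which was 5.35% of the covered length. Of these peaks, 85 were of 2 kb or more and 19 scored 3100 or more. The names given here to these domains rest on the well-known positions of the loci in mm9 and not on an annotation. A cluster named below means the domain of joined peaks, and the genes of the cluster can reach beyond it. The Hox clusters encode homeodomain factors that set position along the body axis, and the neighbours Zic1 and Zic4 encode zinc-finger factors of the developing nervous system.

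The Hoxc cluster (chromosome 15, 102732520 to 102901305) held 52 peaks with a median gap of only 85 bp and a largest gap of 3699 bp, and 91.2% of its span was covered. Its peaks were unequal, with 22 of 2 kb or more and a median width of 1123.5 bp, and scores ran from 52.1 to 3196. The Hoxa cluster (chromosome 6, 52099332 to 52228455) was split into fewer and wider peaks, 30 with a median of 2840 bp, and had the highest covered share of the 5, 93.8%. The Hoxb cluster (chromosome 11, 96111402 to 96236792) held 39 peaks with a median gap of 239 bp and was covered to 85.9%. The Hoxd cluster (chromosome 2, 74484673 to 74593091) held 35 peaks with a median width of 2492 bp and was covered to 91.5%. The domain at Zic1 and Zic4 (chromosome 9, 91243710 to 91318923) was the loosest, with 24 peaks, a median gap of 262 bp and 83.4% covered.

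Within these clusters, H3K27ac peaks touched 9 of the 30 Hoxa peaks and 9 of the 39 Hoxb peaks, and none of the Hoxc, Hoxd or Zic peaks. H3K4me3 touched 25 of 30 at Hoxa, 26 of 39 at Hoxb, 24 of 52 at Hoxc, 27 of 35 at Hoxd and 12 of 24 at Zic1 and Zic4. Over all 11419 peaks, H3K4me3 touched 48.2% and H3K27ac 1.2%. The H3K4me3 counts at Hoxc and at Zic1 and Zic4 were near the share over all peaks. That share depends on width: H3K4me3 touched 28.4% of peaks under 500 bp and 92.2% of those of 2 to 5 kb. Peaks under 500 bp were 52.6% of the list, whereas 85 of the 180 peaks in the 5 domains were of 2 kb or more. The counts were not compared with those of peaks of like width. Weak peaks were present in each of the 5 domains, whose lowest scores were 51.2 to 52.6.

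The 10 longest peaks were not all in these domains. The widest, 16.25 kb on chromosome 11 at 96148329 to 96164578, lay in the Hoxb cluster, as did a peak of 13.7 kb. The Hoxc cluster held 3 of them, of 15.3, 14 and 13.5 kb, and the Hoxd cluster 1, of 13.2 kb. The other 4 lay in smaller domains. On chromosome 5, a peak of 15.5 kb at 120243849 to 120259386 belonged to a domain of 4 peaks that covered 17.3 kb, and a peak of 13 kb at 148111265 to 148124237 belonged to a domain of 6 peaks. On chromosome 11, a peak of 14.2 kb at 96045861 to 96060073 lay in a separate domain of 10 peaks that covered 43.7 kb. It started in the same 1-Mb bin as the Hoxb domain. Whether it lies at a gene of the Hoxb cluster was not tested, for lack of an annotation. On chromosome 3, a peak of 13.5 kb at 88004962 to 88018473 made up most of a domain of 3 peaks that covered 21.6 kb.

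Scores did not order these 10 peaks. Of the 10, 8 scored 3100, while the peak of 15.5 kb on chromosome 5 scored 1696 and that on chromosome 3 scored 1757. Each had a neighbour within 200 bp, and each touched H3K4me3 and H3K4me1 but no H3K27ac peak.

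Along the chromosomes the peaks were concentrated in a minority of 1-Mb bins. Of 2482 bins, 751 (30.3%, 28.5 to 32.1) held 0 peaks, 389 held 1, and the median was 2 against a mean of 4.6. Of the bins with 0 peaks, 61 lay before the first peak of any mark on their chromosome, and without these the share was 28.5%. The variance of the counts was 12.49 times their mean. Ranked by count, the densest 5% of bins (125 bins) held 32.3% of the peaks, and 258 bins held 50%. Covered length was more concentrated than the count: the fullest 5% of bins held 45.4% of it and 152 bins held 50%. Both rankings had 87 of their 125 bins in common. Among peaks scoring 100 or more, 57.8% of bins held 0 and the densest 5% held 41.7% of the peaks.

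Dense bins also held longer and stronger peaks. In bins with 1 to 4 peaks, the median width was 370 bp, the median score 62.8 and 1.37% of peaks were of 2 kb or more. In bins with 10 to 19 peaks these values were 528 bp, 94.7 and 10.4%, and in the 12 bins with 50 or more they were 583.5 bp, 117 and 14.9%. The share of peaks on H3K4me3 did not follow the same order, at 40.2% in bins with 1 to 4 peaks, 52% with 5 to 9, 51.3% with 10 to 19, 48.8% with 20 to 49 and 40.3% with 50 or more.

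The bin with the most peaks was the 1-Mb bin that starts at 102 Mb of chromosome 15, which holds the Hoxc cluster, with 81 peaks over 184.4 kb. The bin from 96 to 97 Mb of chromosome 11, with the Hoxb cluster, held 73 peaks over 167.7 kb. Next by count came 86 to 87 Mb of chromosome 7 (72 peaks, 76.6 kb), 87 to 88 Mb of chromosome 8 (69 peaks, 69.3 kb) and 120 to 121 Mb of chromosome 5 (67 peaks, 105.1 kb). The last of these was scattered, with 21 domains and a median width of 498 bp. By covered length, the bins of the Hoxa cluster (chromosome 6, 52 to 53 Mb, 142.5 kb in 40 peaks) and of the Hoxd cluster (chromosome 2, 74 to 75 Mb, 107.5 kb in 47 peaks) came next after those of Hoxc and Hoxb. The Hoxa bin had the widest peaks of these bins, with a median of 2395 bp and a median score of 953.

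**Figure D4:**
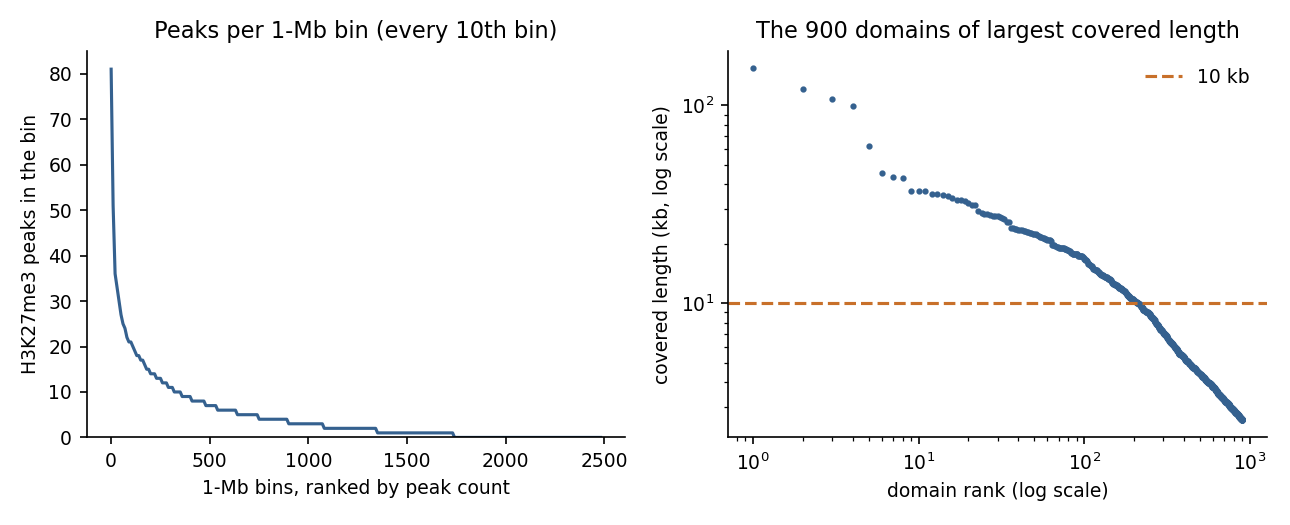
Left, H3K27me3 peaks per 1-Mb autosomal bin against the rank of the bin, for every 10th of the 2482 bins, falling from 81 peaks to 0 in the last 751 bins. Right, covered length (kb, log scale) of the 900 largest domains against their rank (log scale), where 4 domains stand near or above 100 kb and 212 lie above the dashed line at 10 kb.

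The autosomes differed up to 3.23-fold in peaks per Mb and 3.75-fold in covered length per Mb, while their median widths differed up to 1.29-fold. Peaks per Mb ranged from 2.57 on chromosome 14 to 8.3 on chromosome 19, with a median of 4.59. Chromosome 2 held the most peaks, 1126 (9.86%), and 10.9% of the covered length, while chromosome 16 held 265 peaks and 1.96%. Median widths lay between 407 bp on chromosome 16 and 524 bp on chromosome 2, and median scores between 68.8 and 92.5 on the same 2 chromosomes. The share of covered length in peaks of 2 kb or more was lowest on chromosome 1, 26.5%, and highest on chromosome 5, 48.7%. Bins with 0 peaks made up 15.6% of chromosome 11 and 40.5% of chromosome 14.

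The width of an H3K27me3 peak went with the other marks found on it, as far as the overlap itself allows. H3K4me3, the mark of promoters, touched 1705 of 6005 peaks under 500 bp (28.4%, 27.3 to 29.5) and 64.8% of those of 500 bp to 2 kb. It touched 92.2% of those of 2 to 5 kb and 192 of the 194 longest (99%, 96.3 to 99.7). H3K4me1, found at enhancers and beside promoters, touched 44.6%, 74.6%, 92.7% and 98.5% in the same order. H3K27ac touched 77 short peaks (1.28%, 1.03 to 1.6) and 1 of the 194 longest (0.515%, 0.0911 to 2.86). A longer interval meets more peaks of any kind, so these shares rise with width in part by construction.

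The midpoint of a peak does not depend on its width. By that measure, chosen after the overlaps were seen, most of the rise from the shortest class to the longest was gone. The midpoint lay in an H3K4me3 peak for 22% of peaks under 500 bp, 34.1% from 500 bp to 2 kb, 31.2% from 2 to 5 kb and 30.9% at 5 kb or more. For H3K4me1 the shares were 39.3%, 63.5%, 64.2% and 55.2%. Most of its step from the shortest class to the next, 44.6% to 74.6% by any base, therefore remained. The shortest class was lowest for both marks by either measure. As a share of covered bases, H3K4me3 lay over 22.5%, 38.7%, 38% and 29.8% of the 4 classes, and H3K27ac over 0.948% of the bases of the shortest class and 0.00482% of those of the longest. Most bases of long H3K27me3 peaks thus lay outside H3K4me3 peaks, although nearly every long peak touched one.

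**Figure D5:**
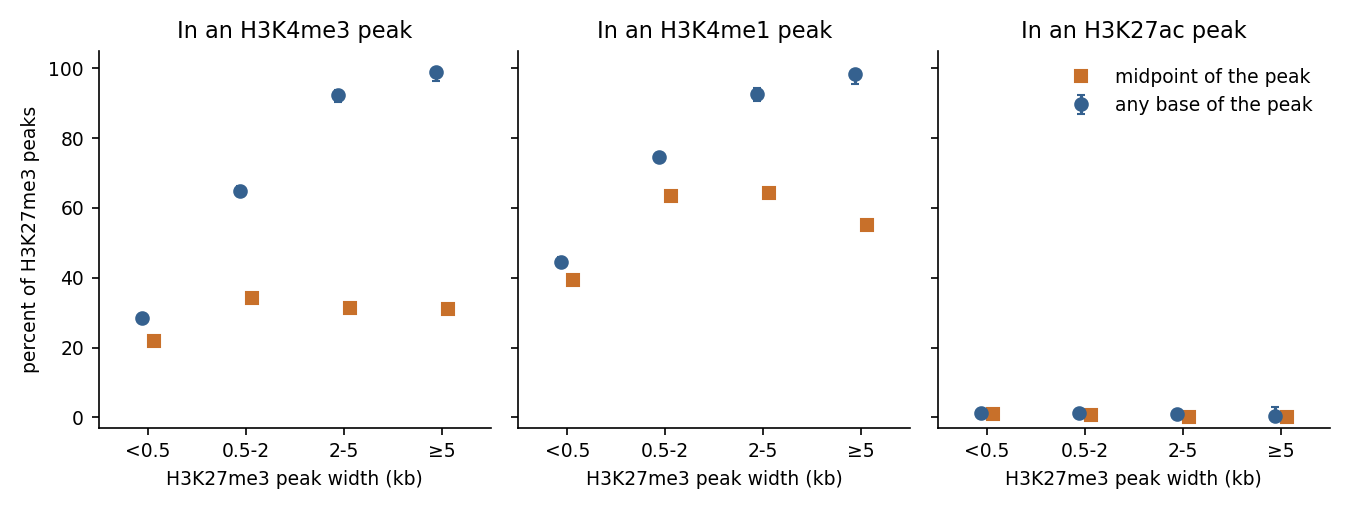
Percent of autosomal H3K27me3 peaks in 4 width classes that touch a peak of H3K4me3, H3K4me1 or H3K27ac with any base (blue, with 95% Wilson intervals) or with their midpoint (orange). For H3K4me3, the share by any base rises from 28.4% to 99%, and the share by midpoint stays between 22% and 34.1%.

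Short peaks differed among themselves by their surroundings. Of the 6005, 3006 (50.1%) had a neighbour but no peak of 2 kb or more within 5 kb, and H3K4me3 touched 36.6% of these (34.9 to 38.4). The 846 that lay within 5 kb of such a long peak were on H3K4me3 in 25.7% of cases (22.8 to 28.7). The 880 with their nearest peak 5 to 100 kb away were on H3K4me3 in 19% of cases (16.5 to 21.7). The share on none of the other 3 marks was 61.9% for these 880, and 52.5% for all peaks under 500 bp. It was 55% beside a long peak and 41.5% with a neighbour but no long peak. The 1273 with no peak within 100 kb were on H3K4me3 in 17.3% of cases (15.3 to 19.5) and on none of the other 3 marks in 70.5% (68 to 73). The median width of these 1273 was 345 bp and their median score 56.6, against 351 bp and 57.3 for the 880 and 370 bp and 63.3 beside a long peak. The solitary peaks were also the weaker ones, and the part of the score in these shares was not tested.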

How the data were processed

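Chromatin immunoprecipitation and sequencing of EpiSC9 cells gave 4 lists of peaks, 1 per library and mark, and the input library was not used here. The authors deposited intervals with a score per peak and no header. The submitters' processing notes name mm9, Bowtie 0.12.9, MACS 1.4 and Cufflinks. For the calling control, duplicate reads and threshold, the sources read here give no setting, so the depth of the library is unknown and the score served only to rank or filter peaks.

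Coordinates were turned to 1-based positions. Gaps run from the end of a peak to the start of the next. Domains join peaks with gaps of 5 kb or less. Bins of 1 Mb run from the first base to the last peak of any list, since mm9 chromosome lengths were not used, and hold peaks by midpoint. Overlap means at least 1 bp. Alternatives were other score filters, joining distances, bins, chromosome X and removal of the 5 largest domains.

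Named regions were the 10 longest peaks, the 5 largest domains, the 5 bins with most peaks or covered length, the 3 longest gaps and the 3 widest isolated peaks. Members, classes and this rule were chosen with earlier results of these data known. Gene names rest on general knowledge of mm9, since the annotation at hand was of another build. Python 3.11.15, numpy 2.4.6, scipy 1.17.1, pandas 2.3.3 and matplotlib 3.10.9 were used, and the functions were tested on simulated intervals.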

Additional observations from a re-analysis of the deposited data

How the results depend on the processing

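Of 94 values under other settings, 17 stayed within the interval of the reported value, or, for the number of domains, within 1.5 times of it. Lengths held by a top share have no interval, so any change counts as a move. Some of the 17 could not move. No peak of 2 kb or more scored under 100, so the score filters left the H3K4me3 shares of these classes unchanged. Removing the 5 largest domains lowered their number only to 4650, by construction. With scores of 100 or more, and at or above the median score in that order, the share of peaks under 500 bp (52.6%) was 6.46% and 12.3%, the longest 10% of peaks held 34.2% and 35.5% of the covered length (40.9%), the median gap (1195.5 bp) was 1040.5 and 993 bp, the domains (4655) numbered 1998 and 2250, bins with 0 peaks (30.3%) rose to 57.8% and 54.6%, and the densest 5% of bins held 41.7% and 39.97% of the peaks (32.3%). H3K4me3 then touched 44.2% and 40.8% of peaks under 500 bp (28.4%) and 69.97% and 67.5% of those of 500 bp to 2 kb (64.8%). With peaks joined within 1 kb, the values were 49.99% under 500 bp, 56.1% of length in the longest 10%, a median gap of 127904 bp and 25.7% of peaks in the densest bins. With chromosome X they were 64.7%, 40.7%, 2928 bp and 45.6%, with 7555 domains. Without the 5 largest domains, the longest 10% held 39.5% and the densest bins 31.6%. Bins of 500 kb and 2 Mb were empty in 50.1% and 13.7% of cases and gave 40.5% and 25.9% in the densest 5%, and shifted bins gave 32.8%. An overlap of at least 50% of the H3K27me3 peak gave H3K4me3 shares of 22.1%, 35%, 32.3% and 16% from the shortest class to the longest, and H3K4me3 within 1 kb gave 52.8%, 85.3% and 97% for the first 3. Midpoints, added after the data were examined, gave 22%, 34.1%, 31.2% and 30.9%. The filter at a score of 100 left out 5688 of the 6005 peaks under 500 bp (94.7%). Beyond this, the cause was not tested for score filters and chromosome X. Other bins and joining change the unit counted. No paired analysis was possible because each mark had 1 library. Depth is unknown, and its effect on the number of weak peaks was not tested.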

Other observations

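Peaks isolated on both sides, with more than 100 kb to each neighbour, numbered 1481 and had a median width of 353 bp. Of these, 8 were of 2 kb or more. The widest, on chromosome 12 at 112511235 to 112515643, was 4.41 kb long with a score of 1804, and lay 535.6 kb and 119.2 kb from its neighbours. The next, on chromosome 11 at 116391861 to 116394425 (2565 bp) and on chromosome 17 at 87153685 to 87156153 (2469 bp), scored 723 and 779. Each of the 3 touched H3K4me3 and H3K4me1 and no H3K27ac peak.

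The 3 longest stretches without an H3K27me3 peak held peaks of each of the other marks. The stretch of 10.4 Mb on chromosome 14, from 83884336 to 94289673, held 33 H3K4me3, 25 H3K27ac and 20 H3K4me1 peaks. That of 8.31 Mb on chromosome 7, from 38939466 to 47250145, held 22, 10 and 20, and that of 7.92 Mb on chromosome 12, from 17333467 to 25257999, held 29, 41 and 78. For scale, the 4 lists together held 156288 peaks on all chromosomes, of which 16975 were of H3K27me3. The autosomes spanned 2472 Mb up to their last peak of any list. These totals pool the marks and give no density per mark. Whether the stretches were poor in each of the other marks was therefore not tested. Empty 1-Mb bins lay in 422 runs, of which 17 were 5 bins or longer and the longest was 10.

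Scores repeated at the weak end. The 11419 peaks had 6682 distinct scores, and the most frequent one, 50.31, was shared by 140 peaks.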
